A study of Arabidopsis thaliana with 36 samples.

Results

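The 46 genes described here encode wall-loosening and wall-remodelling proteins of Arabidopsis: α-expansins (EXPA), β-expansins (EXPB), expansin-like proteins (EXLA and EXLB), and xyloglucan endotransglucosylase/hydrolases (XTH). They were taken by gene name, with a rule that holds no expression value other than a floor of 15 reads summed over 36 libraries. They comprised 12 *EXPA*, 3 *EXPB*, 4 *EXLA* and *EXLB*, and 27 *XTH* genes out of 25889 genes at or above this floor. *EXPA1*, *EXPA7*, *EXPA14*, *EXPA17*, and *EXPA18* were set aside by name, and 13 further family members fell under 15 reads, 8 of them with 0 reads in every library (*EXPA22* to *EXPA25*, *EXPB4* to *EXPB6*, and *XTH1*). *XTH22* and *XTH23* carry other names in the count table (*TCH4* and *XTR6*) and were not matched by the rule. *EXPA3* and *XTH27* were not matched by the rule either, and are not described here.

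RNA came from roots of *puchi-1*, a mutant in the AP2/ERF transcription factor gene *PUCHI*, and of wild-type (WT) Columbia-0, its background. Seedlings aged 4 d and grown in continuous light were turned, and the root bends, where the turn induces a lateral root (LR), were cut out at 12, 18, 24, 30, and 36 hours post-gravistimulation (hpg). ‘No LR’ samples were mature segments between bend and shoot, taken at 9 h by the sample labels and at 12 hpg by the Methods, so each genotype had 6 groups of 3 biological replicates. Each replicate pooled more than 400 bends, or about 400 ‘No LR’ segments, and no transgene or drug is named for any group. A segment holds every tissue of the root around the primordium, and in such bulk RNA fewer cells of a type and less RNA per cell cannot be told apart.

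Expansins loosen the primary wall without cutting its polymers, whereas XTH enzymes cut xyloglucan, the chief hemicellulose of the Arabidopsis primary wall, and can rejoin the cut end to another chain. Expansin-like proteins share the expansin fold, but a wall-loosening activity has not been established for them. An LR primordium arises inside the root and has to grow through the endodermis, cortex, and epidermis, and in the epidermis several *XTH* genes are known from the root hair zone.

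A site shared by most α- and β-expansins was read from the genome, because the members with the steadiest genotype differences, *EXPA20* and *EXLB1*, depart from it. *EXPA13* and the *EXLA* genes depart from it too, and passed no comparison of the genotypes in the edgeR fit without pairing. *EXPA15*, which passed in the mean of the bends, keeps the site. A link between the site and the genotype differences was not tested. Expansins of the α and β groups share a histidine-phenylalanine-aspartate triplet in their first domain. The coding strands of 27 bases are given here from the TAIR10.1 genome (RefSeq), all on the minus strand, with the codons that align with this triplet of EXPA4 in capitals: *EXPA4* chr2:16544935-16544961, *EXPA15* chr2:917962-917988, *EXPB3* chr4:14001469-14001495, *EXPA13* chr3:743547-743573, *EXPA20* chr4:17923344-17923370, and *EXLB1* chr4:9582339-9582365.
EXPA4: ccacgtgaaCACTTTGACctagccatg
EXPA15: ccgcttcatCATTTCGATctctctcag
EXPB3: accagcactCACTTTGACctcagtggt
EXPA13: cctaacaaaCATTTCGTGcttccgatc
EXPA20: ccaaaggaaCACTTGGAActatctcat
EXLB1: cctaaggcgTACGGACGTatggcgcga
The triplet was encoded in 10 of 12 *EXPA* genes and 3 of 3 *EXPB* genes, and in 0 of 4 *EXLA* and *EXLB* genes. *EXPA13* kept 2 of its 3 codons by amino acid, *EXPA20* kept 1, and *EXLB1* kept 0. Translated coding sequences aligned with EXPA4 at 69.0% identity for EXPA15, 50.4% for EXPA13, 45.6% for EXPA20, 36.3% for EXPB3, and 27.6% for EXLB1.

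In the *XTH* genes the corresponding landmark is the catalytic stretch, whose paired glutamates carry out the cut. A loose match (paired glutamates at a fixed spacing with an acidic or amide residue between them, and a closing leucine and glycine) was found in 26 of 27 *XTH* members, all but *XTH11*, and a strict match to the usual residues in 6 of 27, among them *XTH4* and *XTH15*. The following coding strands of 30 bases have both glutamate codons in capitals, which are present in genes with opposite time courses, while the residues around them vary. *XTH7* (chr4:17776854-17776883, minus strand), *XTH9* (chr4:1416535-1416564, plus strand), and *XTH4* (chr2:2764490-2764519, plus strand) were higher at 36 hpg than at 12 hpg in both genotypes. *XTH14* (chr4:13130777-13130806, plus strand), *XTH10* (chr2:6245361-6245390, plus strand), and *XTH15* (chr4:8137782-8137811, minus strand) were lower, and *XTH31* (chr3:16447882-16447911, minus strand) was the most highly expressed member.
XTH7: cgagacGAGcttgattttGAGttcttagga
XTH9: cacaacGAAttcgattttGAGttcttaggg
XTH4: catgacGAGatagactttGAGttccttgga
XTH14: tgggatGAGattgacttcGAGtttttggga
XTH10: cgggatGAGattgactttGAGttcctcgga
XTH15: catgacGAGatagactttGAGtttctaggt
XTH31: cacgatGAGgtcgatatcGAGtttctaggg

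The libraries held 31712025 to 121580405 counts each. *PUCHI* itself gave 9.47 to 40.6 CPM (each gene's counts scaled to a common library total, with TMM scaling throughout) in *puchi-1* libraries and 5.16 to 20.2 CPM in WT libraries. It was higher in the mutant on average over the bends (log2FC 0.83, adjusted *P*=1.61e-07), so its level does not check the genotype labels. Replicate 1 of the ‘No LR’ segments stood apart in both genotypes. Its title carries no date in either genotype, whereas the titles of replicates 2 and 3 carry month 8. In *puchi-1* the titles of replicates 2 and 3 share a number and a date, and the labels do not say whether they were harvested together. The summed level of 7 genes of the Casparian strip (*CASP1* to *CASP5*, *ESB1*, and *MYB36*) was 722 CPM in replicate 1 and 40.0 and 24.0 CPM in replicates 2 and 3 of *puchi-1*, and 814, 34.6, and 17.6 CPM in WT. Results on ‘No LR’ segments are therefore given with and without both of these libraries, an alternative chosen after the data were seen.

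Levels per kilobase of exon differed widely between the members. *XTH31*, which in Arabidopsis acts mainly as a xyloglucan hydrolase, averaged 361 CPM per kb over the 12 groups, ahead of *EXPA4* (117), *EXPB3* (113), *XTH24* (108), *XTH14* (85.4), *XTH30* (61.1), and *EXLA1* (51.8). The highest *EXPA* genes were thus *EXPA4* and *EXPA15* (44.1 CPM per kb), the highest *EXPB* genes *EXPB3* and *EXPB1* (3.37), and the highest expansin-like genes *EXLA1* and *EXLA3* (27.2). *XTH25* was lowest at 0.0255 CPM per kb, close to *XTH6* (0.0276), *EXPA5* (0.0329), and *EXPB2* (0.0381).

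**Figure D1:**
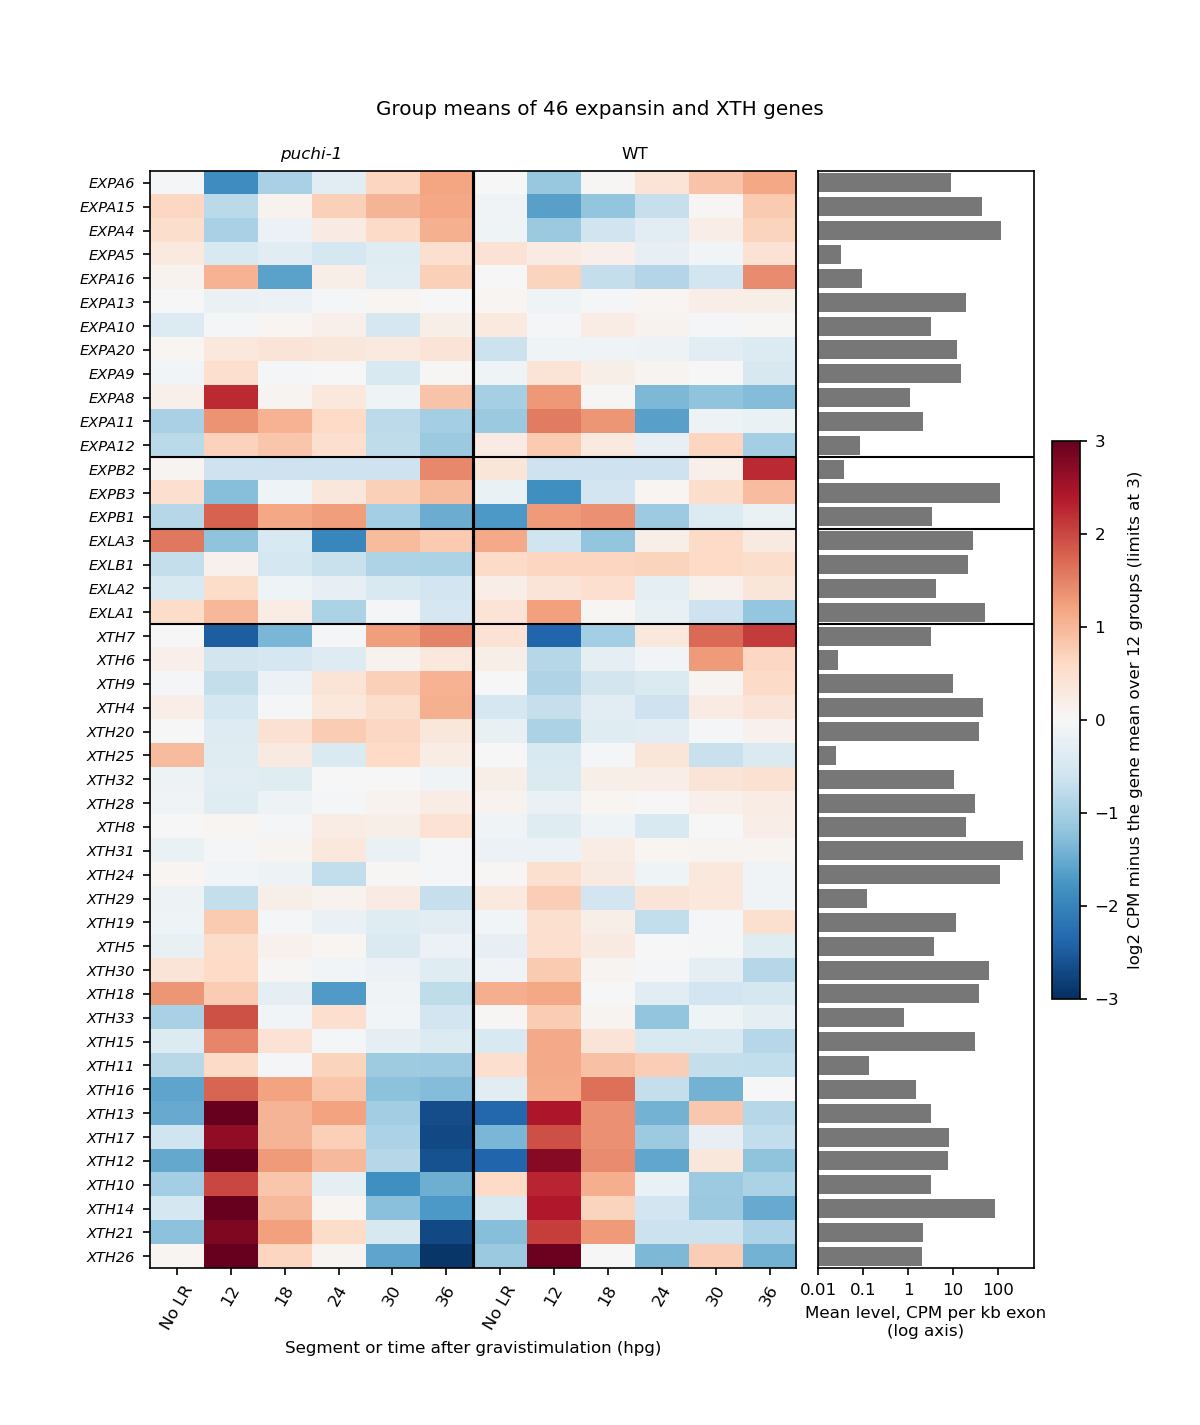
Group means of log2 CPM for the 46 genes (one line per gene, families separated by lines, ordered within a family by the change between 12 and 36 hpg), relative to each gene's mean over the 12 groups, with *puchi-1* columns left of WT columns and the mean level in CPM per kb of exon at the right on a log axis. Of the 46 genes, 22 had their highest bend mean at 12 hpg in *puchi-1* and 22 in WT, and 13 had it at 36 hpg in *puchi-1* and 15 in WT.

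The abundant *XTH31* changed little anywhere. In *puchi-1* it gave 367, 347, and 622 CPM in ‘No LR’ segments and then 509, 394, and 548 CPM at 12 hpg, 564, 444, and 569 CPM at 18 hpg, 554, 701, and 585 CPM at 24 hpg, 378, 526, and 390.2 CPM at 30 hpg, and 412, 455, and 579 CPM at 36 hpg. In WT the libraries gave 272, 583, and 526 CPM without LR, 348, 591, and 396 CPM at 12 hpg, 594, 480.2, and 655 CPM at 18 hpg, 455, 598, and 482 CPM at 24 hpg, 405, 626, and 556 CPM at 30 hpg, and 631, 445, and 499.7 CPM at 36 hpg. The genotypes overlapped at every stage, and *XTH31* passed no test (log2FC −0.01 for *puchi-1* and 0.24 for WT at 36 hpg against 12 hpg).

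Few members differed between the genotypes. With edgeR's quasi-likelihood test and a Benjamini-Hochberg adjusted *P* under 0.05, *EXLB1* was lower and *EXPA20* higher in *puchi-1* at every stage but 12 hpg, and no other member passed at any single stage in this fit without pairing. In ‘No LR’ segments 1 of 46 members was higher and 1 lower, against 0.406% and 0.653% of all genes, and 5 members passed in all without WT replicate 3 and 4 without *puchi-1* replicate 1. The same counts of 1 and 1 stood against 0.239% and 0.182% of all genes at 18 hpg, 0.239% and 0.456% at 24 hpg, 0.201% and 0.297% at 30 hpg, and 0.429% and 0.525% at 36 hpg. At 12 hpg 0 members passed, with 3 at an unadjusted *P* under 0.05 and 0 with DESeq2, where 0.0232% of all genes were higher and 0.0502% lower. For the mean of the 5 bend times, 3 members were higher (*EXPA20*, *EXPA15*, and *XTH20*) and 2 lower (*EXLB1* and *XTH24*), against 5.57% and 5.32% of all genes, a share of 10.9% both of the members and of all genes. The count of 5 was 8 with DESeq2, 9 with the replicate block, and 13 with the compared groups fitted alone. At single stages the median log2FC of the members lay between −0.25 (‘No LR’) and 0.26 (24 hpg), against −0.02 to 0.00 for all genes. The median for this mean was −0.11, against −0.01 for all genes.

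*EXLB1*, the only expansin-like B gene of Arabidopsis (chr4:9581562-9583290, minus strand, 4 exons), was lower in the mutant in the libraries of every stage, and passed the test at all but 12 hpg. In ‘No LR’ segments it gave 10.4, 17.4, and 11.6 CPM in *puchi-1* and 45.8, 30.1, and 22.4 CPM in WT. At 12 hpg the values were 23.04, 18.02, and 28.8 CPM in *puchi-1* and 34.7, 31.9, and 32.2 CPM in WT, and at 18 hpg 16.9, 14.8, and 12.1 CPM in *puchi-1* and 31.4, 36.0, and 30.7 CPM in WT. The WT libraries thus stayed near the same level while those of the mutant lay below it. At 24 hpg *puchi-1* gave 12.7, 17.9, and 9.90 CPM and WT 28.8, 36.5, and 35.4 CPM. At 30 hpg the mutant libraries were at 9.98, 10.3, and 12.9 CPM and the WT libraries at 31.4, 33.2, and 30.6 CPM, and at 36 hpg at 12.1, 10.1, and 10.4 CPM in *puchi-1* and 24.9, 34.0, and 31.8 CPM in WT. No *puchi-1* library reached a WT library of its stage.

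In numbers, the log2FC of *EXLB1* was −1.32 ± 0.225 (SE, adjusted *P*=0.00315) in ‘No LR’ segments, −0.50 ± 0.222 (adjusted *P*=0.641) at 12 hpg, −1.16 ± 0.225 (adjusted *P*=0.011) at 18 hpg, −1.31 ± 0.225 (adjusted *P*=0.00236) at 24 hpg, −1.52 ± 0.227 (adjusted *P*=0.000643) at 30 hpg, and −1.475 ± 0.226 (adjusted *P*=0.000519) at 36 hpg. Averaged over the bends it was −1.19 ± 0.10 (adjusted *P*=4.16e-09), which is 0.437 times the WT level. Without replicate 1 of both genotypes the difference in ‘No LR’ segments did not pass (log2FC −0.835, adjusted *P*=0.0709). At 18 hpg the call was lost without WT replicate 2 (adjusted *P*=0.0664), *puchi-1* replicate 2 (0.0553), or *puchi-1* replicate 3 (0.122). Libraries that did not overlap at all 6 stages and lay lower in the mutant were seen for 1 member and for 0.1% of all genes.

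*EXPA20*, an α-expansin gene (chr4:17922756-17923973, minus strand, 2 exons), went the other way by a smaller step. It gave 13.5, 13.7, and 14.8 CPM in *puchi-1* and 10.8, 8.57, and 6.63 CPM in WT in ‘No LR’ segments. Bends at 12 hpg gave 16.0, 16.1, and 17.8 CPM in *puchi-1* and 13.1, 11.6, and 12.0 CPM in WT, and those at 18 hpg 17.7, 17.6, and 17.1 CPM in *puchi-1* and 12.1, 13.4, and 11.04 CPM in WT. In these early bends the mutant replicates lay close together and above the WT. At 24 hpg the levels were 15.8, 18.9, and 16.1 CPM in *puchi-1* and 12.2, 10.4, and 13.5 CPM in WT. At 30 hpg they were 17.2, 16.8, and 14.9 CPM in *puchi-1* and 10.8, 10.2, and 11.3 CPM in WT, and at 36 hpg 18.1, 17.8, and 16.4 CPM in *puchi-1* and 10.2, 9.61, and 10.2 CPM in WT. Here too the genotypes did not overlap at any of the 6 stages, a pattern of higher libraries seen for 1 member and 0.0811% of all genes.

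The mean log2FC of *EXPA20* over the bends was 0.57 ± 0.05 (adjusted *P*=2.7e-08), or 1.49 times the WT level. By stage it was 0.69 (adjusted *P*=0.00402) in ‘No LR’ segments, 0.44 (adjusted *P*=0.316) at 12 hpg, 0.52 (adjusted *P*=0.0463, and 0.159 with the replicate block) at 18 hpg, 0.49 (adjusted *P*=0.0466) at 24 hpg, 0.60 (adjusted *P*=0.0124) at 30 hpg, and 0.80 (adjusted *P*=0.000413) at 36 hpg, with an SE of 0.12 at each. Without replicate 1 of both ‘No LR’ groups the first of these was 0.93 (adjusted *P*=0.00021). That fit keeps only replicates 2 and 3, whose titles in *puchi-1* share a number and a date, so its *P* may overstate the evidence. The calls at 18, 24, and 30 hpg were marginal. At 18 hpg each of the 6 libraries ended the call when left out (adjusted *P* from 0.0634 to 0.271). At 24 hpg 5 of 6 did so (0.0879 to 0.263, all but WT replicate 3), and at 30 hpg replicates 1 and 2 of either genotype did (0.0584 to 0.0973).

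*EXPA15*, another α-expansin gene (chr2:916806-918671, minus strand), was higher in the mutant on average over the bends. At 12 hpg it gave 35.4, 27.5, and 25.9 CPM in *puchi-1* and 9.82, 20.5, and 21.9 CPM in WT, and at 18 hpg 60.3, 55.1, and 50.7 CPM in *puchi-1* and 25.2, 21.3, and 21.0 CPM in WT. At 24 hpg *puchi-1* libraries gave 84.3, 78.4, and 88.2 CPM and WT libraries 25.5, 44.6, and 27.1 CPM, and at 30 hpg 94.1, 104, and 111 CPM in *puchi-1* and 50.7, 48.1, and 58.2 CPM in WT. The mutant was above the WT without overlap at these 4 times, a pattern that was not counted over all genes. At 36 hpg the groups overlapped, with 88.0, 119.6, and 140.1 CPM in *puchi-1* and 97.5, 76.6, and 90.0 CPM in WT, as they did in ‘No LR’ segments with 35.9, 85.3, and 155 CPM in *puchi-1* and 18.9, 39.3, and 142 CPM in WT. The mean log2FC over the bends was 0.96 ± 0.20 (adjusted *P*=0.00263), although no single stage passed without pairing: log2FC was 1.3 at 18 hpg (adjusted *P*=0.325, and 0.0446 with the replicate block) and 1.37 at 24 hpg (adjusted *P*=0.184).

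*XTH20*, of the *XTH17* to *XTH20* subgroup, was likewise higher in the mutant on average over the bends, with its highest bend mean at 24 hpg in *puchi-1*. At 18 hpg it gave 65.4, 62.5, and 70.2 CPM in *puchi-1* and 34.1, 36.1, and 43.4 CPM in WT, at 24 hpg 84.6, 74.3, and 87.1 CPM in *puchi-1* and 33.6, 51.9, and 32.4 CPM in WT, and at 30 hpg 77.2, 69.3, and 74.7 CPM in *puchi-1* and 32.8, 57.1, and 52.9 CPM in WT. These 3 times had no overlap, a pattern that was not counted over all genes. The other stages overlapped: 34.0, 28.8, and 50.9 CPM in *puchi-1* and 16.8, 34.4, and 26.9 CPM in WT at 12 hpg, 60.8, 68.2, and 55.4 CPM in *puchi-1* and 58.6, 44.5, and 57.2 CPM in WT at 36 hpg, and 35.2, 39.4, and 80.6 CPM in *puchi-1* and 18.0, 53.7, and 72.3 CPM in WT without LR. The mean log2FC over the bends was 0.65 ± 0.15 (adjusted *P*=0.00663), or 1.57 times the WT level, with a largest single value of 1.06 at 24 hpg (adjusted *P*=0.17).

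*XTH24*, an abundant *XTH* also known from the shoot meristem, was lower in the mutant on average by a small amount (log2FC −0.39 ± 0.11, adjusted *P*=0.0224). At 12 hpg *puchi-1* gave 84.7, 133, and 150.4 CPM and WT 274, 169, and 119 CPM, and at 18 hpg 112, 124, and 104 CPM in *puchi-1* and 102, 229, and 148 CPM in WT. At 24 hpg the levels were 82.7, 66.8, and 77.7 CPM in *puchi-1* and 113, 118, and 116 CPM in WT, which was the only stage without overlap. The other groups were at 129.7, 124, and 132 CPM in *puchi-1* and 196, 154, and 125 CPM in WT at 30 hpg, at 132, 132, and 106 CPM in *puchi-1* and 99.2, 132, and 124 CPM in WT at 36 hpg, and at 111, 145, and 140.0 CPM in *puchi-1* and 108, 144, and 138 CPM in WT without LR. The call rested on WT replicate 1 at 12 hpg, without which the adjusted *P* was 0.0581.

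**Figure D2:**
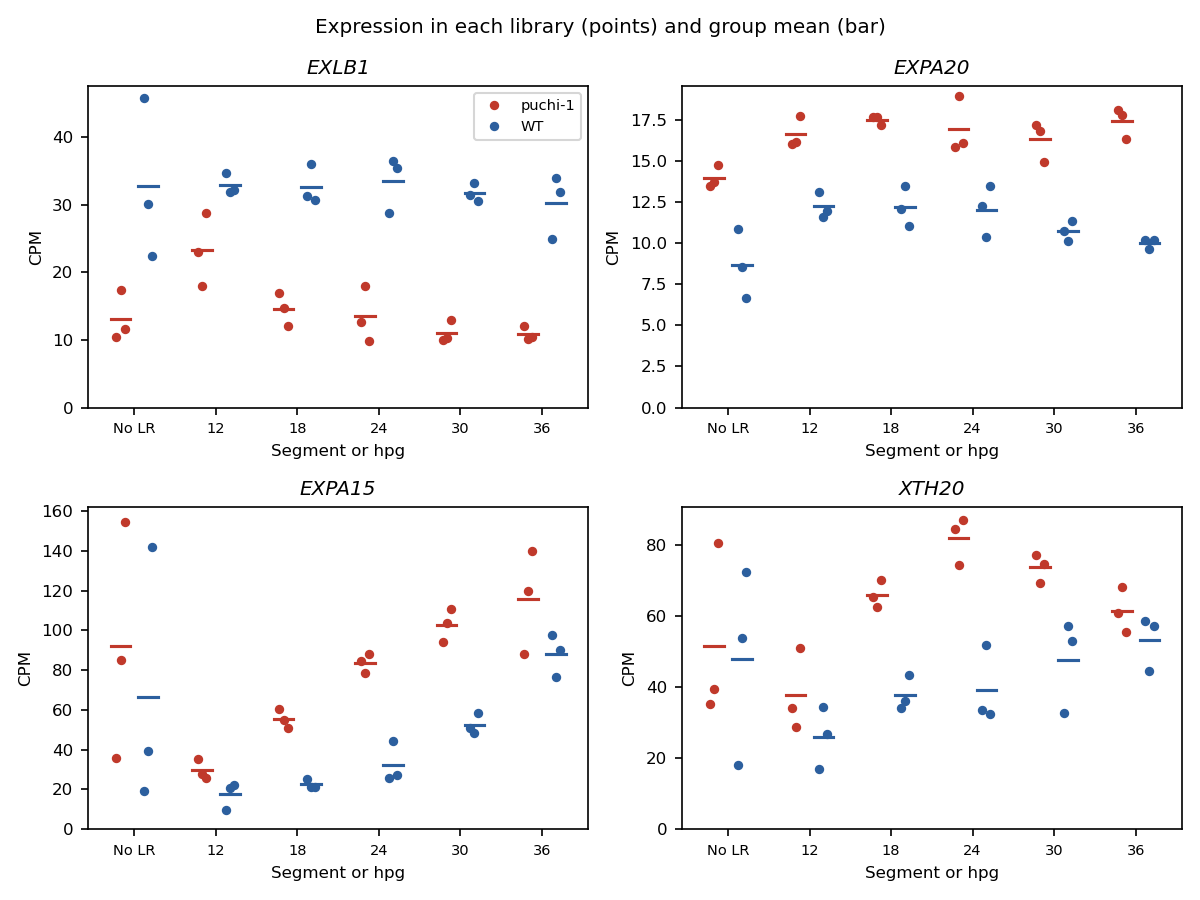
CPM of *EXLB1*, *EXPA20*, *EXPA15*, and *XTH20* in every library (points) with the group mean (bar), *puchi-1* left of WT at each stage. *EXLB1* lies lower and *EXPA20* higher in all 3 *puchi-1* libraries of each of the 6 stages, while *EXPA15* separates from 12 to 30 hpg and *XTH20* from 18 to 30 hpg.

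Another pair of α-expansin genes, *EXPA4* and *EXPA6*, separated by genotype over several stages in opposite directions without passing in the fit without pairing. *EXPB3* also lay higher in *puchi-1* without overlap at 12, 24, and 30 hpg. The share of all genes that separate at only some of the stages was not counted, so such separation is description only. *EXPA4* gave 147, 140.0, and 120.0 CPM in *puchi-1* and 98.8, 100.0, and 105 CPM in WT at 18 hpg, 184, 180.0, and 184 CPM in *puchi-1* and 131, 134, and 105 CPM in WT at 24 hpg, and 202, 267, and 219 CPM in *puchi-1* and 152, 194, and 182 CPM in WT at 30 hpg. For *EXPA6* the mutant lay below the WT, with 4.86, 6.57, and 6.28 CPM in *puchi-1* and 10.4, 12.5, and 12.6 CPM in WT at 18 hpg, 10.3, 7.13, and 10.5 CPM in *puchi-1* and 18.3, 15.3, and 13.01 CPM in WT at 24 hpg, and 17.8, 19.5, and 16.5 CPM in *puchi-1* and 21.6, 21.1, and 20.2 CPM in WT at 30 hpg. Averaged over the bends the log2FC was 0.39 ± 0.175 (adjusted *P*=0.161) for *EXPA4* and −0.54 ± 0.20 (adjusted *P*=0.0846) for *EXPA6*.

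At 18 hpg the replicate numbers were taken to pair the samples of both genotypes, from correlations in these data. The Methods state no pairing. With the replicate number as a block at every stage in 1 fit, 3 members passed at 18 hpg. These were *EXLB1* (log2FC −1.17, adjusted *P*=0.0325), *EXPA6* (−1.01, adjusted *P*=0.0121), and *EXPA15* (1.301, adjusted *P*=0.0446), while *EXPA20* did not pass with the block (adjusted *P*=0.159). Without pairing, *EXPA6* and *EXPA15* did not pass at this stage. The pairing was read from the same expression values, and the fit also blocks stages where the numbers were not taken to pair. The calls of *EXPA6* and *EXPA15* with the block are thus not independent support for a difference.

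Time moved far more members than genotype did at any stage, as it did for all genes. Between 12 and 36 hpg, 9 of 46 members rose and 14 fell in *puchi-1*, against 17.7% and 15.9% of all genes, and 13 rose and 8 fell in WT, against 18.9% and 17.3% of all genes. That is 50% of the members in *puchi-1* and 45.7% in WT, against 33.6% and 36.2% of all genes. Of these, 9 rose in both genotypes (*EXPA4*, *EXPA6*, *EXPA15*, *EXPB2*, *EXPB3*, *XTH4*, *XTH7*, *XTH9*, and *XTH28*) and 6 fell in both (*EXLA1*, *XTH10*, *XTH14*, *XTH15*, *XTH21*, and *XTH30*). A further 8 passed in *puchi-1* alone, all lower (*EXLA2*, *EXLB1*, *EXPB1*, *XTH16*, *XTH17*, *XTH18*, *XTH26*, and *XTH33*), and 6 in WT alone, of which *EXPA13*, *XTH6*, *XTH20*, and *XTH32* rose and *XTH5* and *XTH24* fell. When each library was left out in turn, 16 of the 23 calls in *puchi-1* and 10 of the 21 in WT held. The remaining 17 members passed in neither genotype, and 39 of 46 changed in the same direction in both. The median log2FC of the members was −0.31 in *puchi-1* and −0.27 in WT, against 0.07 and 0.04 for all genes.

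The members that rose included the most abundant expansins. *EXPB3*, a β-expansin gene, gave 307, 386, and 452 CPM at 36 hpg and 79.8, 83.2, and 80.0 CPM at 12 hpg in *puchi-1*, and 399, 334, and 376 CPM at 36 hpg and 39.5, 61.4, and 67.5 CPM at 12 hpg in WT. Its intermediate bends lay between these, at 208, 192, and 140.2 CPM in *puchi-1* and 138, 140.2, and 116 CPM in WT at 18 hpg, 242, 247, and 246 CPM in *puchi-1* and 167, 234, and 217 CPM in WT at 24 hpg, and 314, 316, and 326 CPM in *puchi-1* and 280.5, 257, and 311 CPM in WT at 30 hpg. The log2FC at 36 hpg against 12 hpg was 2.24 ± 0.46 in *puchi-1* (adjusted *P*=0.00068) and 2.72 ± 0.47 in WT (adjusted *P*=0.000173).

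*EXPA4* and *EXPA6* climbed in the same steady way. *EXPA4* gave 261, 294, and 433 CPM at 36 hpg and 73.9, 71.2, and 90.6 CPM at 12 hpg in *puchi-1*, and 259.7, 240.5, and 228 CPM at 36 hpg and 70.3, 81.8, and 62.7 CPM at 12 hpg in WT. *EXPA6* gave 21.7, 28.7, and 28.1 CPM at 36 hpg and 2.72, 2.93, and 3.82 CPM at 12 hpg in *puchi-1*, and 23.8, 26.1, and 27.98 CPM at 36 hpg and 4.41, 5.74, and 5.63 CPM at 12 hpg in WT. The folds were 4.19 in *puchi-1* and 3.39 in WT for *EXPA4*, and 8.30 in *puchi-1* and 4.93 in WT for *EXPA6* (adjusted *P* from 7.75e-05 to 0.00157). *EXPA15* rose 3.91-fold in *puchi-1* and 5.05-fold in WT (adjusted *P*=0.00203 and 0.000589). None of these calls for *EXPB3*, *EXPA4*, *EXPA6*, and *EXPA15* was lost when any of the 6 libraries compared was left out.

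Among the *XTH* genes, *XTH7* rose steeply in both genotypes. It gave 4.43, 12.4, and 5.86 CPM at 36 hpg and 0.363, 0.322, and 0.556 CPM at 12 hpg in *puchi-1*, and 11.5, 11.6, and 8.78 CPM at 36 hpg and 0.476, 0.205, and 0.818 CPM at 12 hpg in WT. This was a log2FC of 4.21 ± 0.75 in *puchi-1* (adjusted *P*=0.000192) and of 4.40 ± 0.74 in WT (adjusted *P*=0.000136). *XTH9*, which with *XTH4* is known from growing stems, rose by a log2FC of 1.77 ± 0.41 in *puchi-1* (adjusted *P*=0.00194) and 1.40 ± 0.41 in WT (adjusted *P*=0.0097, and 0.0618 without WT replicate 1 at 12 hpg). *EXPB2* and *XTH6*, named after their values were seen, had almost no reads. The β-expansin gene *EXPB2* had 27 reads at 36 hpg and 0 at 12 hpg over the 3 libraries in *puchi-1*, and 35 and 0 in WT, so it was at least 4.69-fold higher in *puchi-1* and at least 10.6-fold higher in WT against a floor of 3 counts over the group. *XTH6* had 10 reads at 36 hpg and 0 at 12 hpg in WT, at least 3.03-fold higher. With DESeq2 *EXPB2* did not pass (adjusted *P*=0.249 in *puchi-1* and 0.127 in WT), and its call was lost without each of the 6 libraries in *puchi-1* (0.0649 to 0.107) and without 12 hpg replicate 1 in WT (0.0514). The *XTH6* call was lost without any of the 3 WT libraries at 12 hpg (0.0538 to 0.0652) or 36 hpg replicate 3 (0.07).

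The members that fell were mostly *XTH* genes, which make up 27 of the 46 members and were also among those that rose. *XTH14*, known from roots together with *XTH26*, gave 11, 13.07, and 22.3 CPM at 36 hpg and 436, 360.0, and 428 CPM at 12 hpg in *puchi-1*, and 33.4, 15.2, and 10.2 CPM at 36 hpg and 219.8, 305, and 264 CPM at 12 hpg in WT. *XTH10* was at 0.405, 1.84, and 1.03 CPM at 36 hpg and 11.3, 10.98, and 9.71 CPM at 12 hpg in *puchi-1*, and at 1.37, 1.33, and 1.29 CPM at 36 hpg and 13.3, 12.0, and 13.5 CPM at 12 hpg in WT. In each of these, no library at 36 hpg reached a library at 12 hpg of its genotype. The log2FC was −4.72 ± 0.96 in *puchi-1* (adjusted *P*=0.000607) and −3.74 ± 0.92 in WT (adjusted *P*=0.00267) for *XTH14*, and −3.30 ± 0.75 in *puchi-1* (adjusted *P*=0.00149) and −3.28 ± 0.75 in WT (adjusted *P*=0.00159) for *XTH10*.

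*XTH15*, a gene also known from shade-induced petiole growth, fell to 22.7, 26.9, and 21.5 CPM at 36 hpg, against 79.1, 84.7, and 95.5 CPM at 12 hpg, in *puchi-1*, and to 20.6, 18.5, and 13.3 CPM, against 90.8, 65.0, and 53.6 CPM, in WT (log2FC −1.87 ± 0.39, adjusted *P*=0.000717, and −1.999 ± 0.39, adjusted *P*=0.00044). *XTH21*, known for a role in primary root growth, gave 0.120, 0.222, and 0.179 CPM at 36 hpg and 14.7, 11.2, and 4.90 CPM at 12 hpg in *puchi-1*, and 1.66, 0.931, and 0.180 CPM at 36 hpg and 8.15, 4.44, and 4.96 CPM at 12 hpg in WT. Its log2FC was −5.88 ± 1.14 in *puchi-1* (adjusted *P*=0.000411) and −2.65 ± 0.97 in WT (adjusted *P*=0.0338). The WT call was lost without WT 12 hpg replicate 1 (0.0962) or WT 36 hpg replicate 2 (0.0802) or 3 (0.121). In *XTH21* 2.22% of windows of 100 bases also occur elsewhere in the genome, so a few of its reads may have been shared, and the other 45 members had no such window. *XTH30* fell by a log2FC of −0.96 ± 0.34 in *puchi-1* (adjusted *P*=0.0316) and −1.65 ± 0.35 in WT (adjusted *P*=0.000873). In *puchi-1* that call was lost without 12 hpg replicate 2 (0.0511) or 3 (0.114), or 36 hpg replicate 2 (0.107) or 3 (0.0741).

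Outside the *XTH* family *EXLA1* fell in both genotypes, and *EXLA2*, *EXLB1*, and *EXPB1* passed as lower in *puchi-1* alone. *EXLA1* gave 45.6, 25.8, and 31.2 CPM at 36 hpg and 70.4, 82.2, and 140.4 CPM at 12 hpg in *puchi-1* (log2FC −1.51 ± 0.47, adjusted *P*=0.0152), and 7.28, 29.9, and 42.3 CPM at 36 hpg and 98.3, 122, and 112 CPM at 12 hpg in WT (−2.06 ± 0.48, adjusted *P*=0.00188). Its other groups were 36.1, 58.2, and 79.3 CPM in *puchi-1* and 28.2, 51.1, and 77.2 CPM in WT at 18 hpg, 33.0, 13.4, and 32.9 CPM in *puchi-1* and 26.5, 42.7, and 55.9 CPM in WT at 24 hpg, 26.5, 57.2, and 64.4 CPM in *puchi-1* and 30.4, 33.0, and 28.3 CPM in WT at 30 hpg, and 73.9, 56.5, and 77.2 CPM in *puchi-1* and 95.3, 48.6, and 52.2 CPM in WT without LR. The *EXLA1* call in *puchi-1* was lost without 12 hpg replicate 3 (adjusted *P*=0.0899) or 36 hpg replicate 2 (0.0675) or 3 (0.0522).

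*EXPB1*, a β-expansin gene, gave 0.765, 1.03, and 1.57 CPM at 36 hpg and 16.0, 10.6, and 7.06 CPM at 12 hpg in *puchi-1* (log2FC −3.31 ± 1.11, adjusted *P*=0.0233), and 5.61, 5.18, and 0.632 CPM at 36 hpg and 4.00, 7.56, and 14.1 CPM at 12 hpg in WT (−1.16 ± 1.03, adjusted *P*=0.396). Between these times it gave 7.82, 4.69, and 8.87 CPM in *puchi-1* and 6.55, 9.75, and 8.04 CPM in WT at 18 hpg, 10.4, 5.93, and 6.45 CPM in *puchi-1* and 4.22, 4.09, and 0.145 CPM in WT at 24 hpg, and 1.26, 3.07, and 0.847 CPM in *puchi-1* and 2.18, 2.27, and 2.44 CPM in WT at 30 hpg. Without LR it gave 4.48, 3.09, and 0.322 CPM in *puchi-1* and 13.2, 0.0194, and 1.07 CPM in WT. The mutant's fall in *EXPB1* lost its call without 12 hpg replicate 1 (adjusted *P*=0.0636) or 36 hpg replicate 1 (0.08) or 2 (0.0686).

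*EXLA3*, the neighbour of *EXLA1* at 2012 bases on the same strand, had a course of its own. In *puchi-1* it gave 20.4, 119, and 126 CPM without LR, 3.58, 11.7, and 22.5 CPM at 12 hpg, 7.20, 25.9, and 23.5 CPM at 18 hpg, 15.7, 0.966, and 12.3 CPM at 24 hpg, 22.2, 53.8, and 69.1 CPM at 30 hpg, and 49.4, 30.3, and 39.6 CPM at 36 hpg. In WT it gave 12.6, 56.9, and 168 CPM without LR, 7.29, 19.4, and 23 CPM at 12 hpg, 1.57, 22.4, and 27.4 CPM at 18 hpg, 11.8, 27.6, and 49.98 CPM at 24 hpg, 39.6, 30.5, and 31.1 CPM at 30 hpg, and 4.02, 48.6, and 101 CPM at 36 hpg. The libraries of a group were far apart at several stages, and no comparison with all libraries passed for *EXLA3*.

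Several of the calls in one genotype alone, or near the threshold, rested on single libraries. In *puchi-1*, *EXLA2* was lost without 12 hpg replicate 1 (adjusted *P*=0.159) or 2 (0.0572) or any library at 36 hpg (0.0584 to 0.101). *XTH18* was lost without 12 hpg replicate 2 (0.0643) or 3 (0.237) or any library at 36 hpg (0.0652 to 0.14), and *XTH26* without 36 hpg replicate 1 (0.0643) or 2 (0.0641). In WT, *XTH4* was lost without 12 hpg replicate 2 (0.0984) or 3 (0.182) or any library at 36 hpg (0.0792 to 0.11), and *XTH28* without 12 hpg replicate 2 (0.0807) or 3 (0.0635) or 36 hpg replicate 1 (0.101) or 2 (0.0891). *EXPA13* was lost in WT without 36 hpg replicate 2 (0.0656) or 3 (0.103), *XTH20* without 12 hpg replicate 1 (0.113) or 36 hpg replicate 1 (0.0547) or 3 (0.0694), and *XTH32* without 12 hpg replicate 1 (0.143) or 3 (0.11) or any library at 36 hpg (0.0582 to 0.0953). *XTH5* was lost in WT without 12 hpg replicate 2 (0.0777) or 3 (0.283) or any library at 36 hpg (0.0524 to 0.123), and *XTH24* without 12 hpg replicate 1 (0.446) or 36 hpg replicate 1 (0.136) or 3 (0.0583). *XTH16*, *XTH17*, and *XTH33*, which passed in *puchi-1* alone, held throughout.

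**Figure D3:**
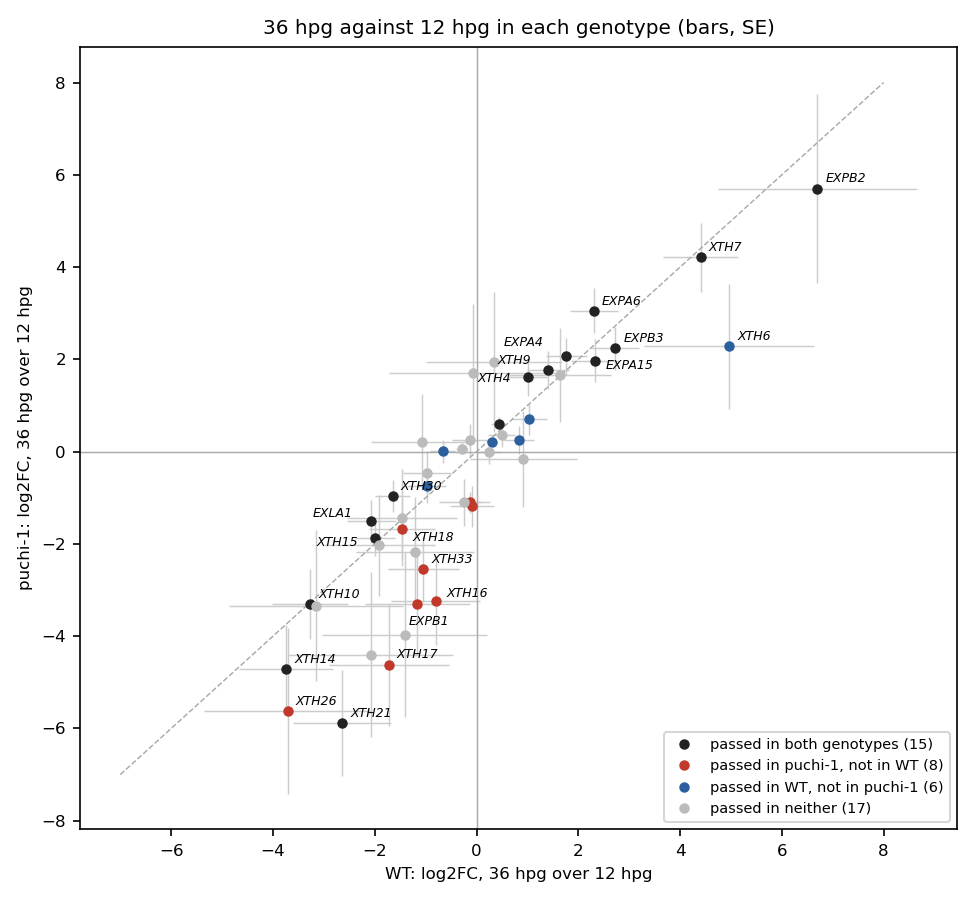
Log2FC of 36 hpg over 12 hpg for the 46 genes in *puchi-1* (vertical axis) and WT (horizontal axis), with SE bars, a dashed line of equal change, and colours for the genotypes in which a gene passed an adjusted *P* under 0.05. The 9 genes that rose and the 6 that fell in both genotypes lie along the dashed line, with *XTH21* below it.

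No member's change between 12 and 36 hpg was shown to differ between the genotypes. In the test of the difference 0 of 46 members passed, and 0 with DESeq2, with 3 at an unadjusted *P* under 0.05, against 0.00386% of all genes called higher and 0.0232% lower. These 3 were *EXLB1* (*puchi-1* minus WT −0.97 ± 0.31, unadjusted *P*=0.0045, adjusted *P*=0.535), *XTH21* (−3.23 ± 1.38, unadjusted *P*=0.0266, adjusted *P*=0.732), and *EXPA20* (0.36 ± 0.17, unadjusted *P*=0.0441, adjusted *P*=0.764). For *EXLB1* the log2FC at 36 hpg against 12 hpg was −1.10 in *puchi-1* (adjusted *P*=0.000645) and −0.12 in WT (adjusted *P*=0.69).

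In the F test over all 5 bend times, 20 members changed in *puchi-1* and 15 in WT, against 24.4% and 28.2% of all genes. Without replicate 3 at 12 hpg the count in *puchi-1* was 13. With DESeq2 the counts were 31 in *puchi-1* and 23 in WT, and with the month in the titles as a covariate it was 25 in WT. The smallest adjusted *P* was that of *EXPA6* in *puchi-1* (0.000236) and of *XTH7* in WT (0.000231). *EXPA20* did not pass in either genotype (adjusted *P*=0.935 in *puchi-1* and 0.173 in WT).

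Bends at 12 hpg were also set against ‘No LR’ segments, to ask how the early bend compares with root free of primordia. In *puchi-1* 6 members were higher (*EXLB1*, *XTH10*, *XTH15*, *XTH16*, *XTH21*, and *XTH33*) and 5 lower, against 11.2% and 13% of all genes. In WT 1 was higher (*EXPA20*) and 5 lower, against 0.919% and 3.25% of all genes. The 5 lower members were the same in both genotypes, namely *EXPA4*, *EXPA6*, *EXPA15*, *EXPB3*, and *XTH7*. All of these were higher in bends at 36 hpg than at 12 hpg. *EXPB3* had 141, 339.8, and 433 CPM in the ‘No LR’ libraries of *puchi-1* and 39.3, 240.1, and 514 CPM in those of WT, and its log2FC at 12 hpg against ‘No LR’ was −1.91 ± 0.46 in *puchi-1* (adjusted *P*=0.00404) and −2.24 ± 0.46 in WT (adjusted *P*=0.00606). *EXPA4* had 126, 239.8, and 353 CPM without LR in *puchi-1* and 50.4, 131, and 406 CPM in WT, and *EXPA6* 3.45, 18.8, and 22.1 CPM in *puchi-1* and 3.99, 12.7, and 30.3 CPM in WT. In these genes replicate 1 was the lowest of the 3 ‘No LR’ libraries of each genotype and lay closest to the bends at 12 hpg.

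The comparisons of 12 hpg with ‘No LR’ and of 36 hpg with 12 hpg share the 12 hpg libraries of a genotype, so their values are not independent. Counts against ‘No LR’ in both genotypes depended on this replicate. Without it in either genotype, 13 members were higher and 11 lower at 12 hpg in *puchi-1*, and 16 higher and 13 lower in WT, among them all 11 and all 6 that passed with it. The share called was then 52.2% of the members and 36.7% of all genes in *puchi-1*, and 63% of the members and 29.6% of all genes in WT. *XTH14* is an example, with 252, 20.8, and 7.56 CPM in the ‘No LR’ libraries of *puchi-1* and 239, 22.2, and 8.70 CPM in those of WT. With all libraries its log2FC at 12 hpg was 2.13 ± 0.85 in *puchi-1* (adjusted *P*=0.0688) and 1.55 ± 0.84 in WT (adjusted *P*=0.267), and without replicate 1 it was 4.80 (adjusted *P*=1.2e-07) in *puchi-1* and 4.04 (adjusted *P*=1.2e-06) in WT. *XTH12*, *XTH13*, *XTH17*, and *XTH26* likewise passed as higher in both genotypes without this replicate, and in neither with all libraries. The fits without it keep only ‘No LR’ replicates 2 and 3, a choice made after the data were seen. In *puchi-1* the titles of those replicates share a number and a date, so they may not be separate harvests. The adjusted *P* values of these fits may therefore overstate the evidence. Leaving out 1 library at a time, *EXPA4*, *EXPA6*, *EXPB3*, *XTH7*, and *XTH15* kept their calls in *puchi-1*, where the count of 11 was 18 without ‘No LR’ replicate 1, 7 without replicate 2, and 5 without replicate 3. *EXPA15* was lost there without ‘No LR’ replicate 3 (0.12), *EXLB1* without ‘No LR’ replicate 3 (0.0536) or 12 hpg replicate 3 (0.0561), *XTH33* without ‘No LR’ replicate 2 (0.0666) or 3 (0.0517), *XTH16* without ‘No LR’ replicate 2 (0.06) or 3 (0.0912) or 12 hpg replicate 1 (0.102), *XTH21* without ‘No LR’ replicate 2 (0.0618) or 3 (0.0593) or 12 hpg replicate 1 (0.0611), and *XTH10* without any of these libraries but ‘No LR’ replicate 1 (0.0571 to 0.168). In WT leaving out ‘No LR’ replicate 3 left 0 members passing, with adjusted *P* of 0.214 for *EXPB3*, 0.255 for *XTH7*, 0.599 for *EXPA15*, 0.685 for *EXPA6*, 0.289 for *EXPA20*, and 0.792 for *EXPA4*. Without WT replicate 1 at 12 hpg only *XTH7* passed, and without replicate 2 at 12 hpg 3 members did.

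Markers of other root tissues moved with the falling members, and their part in the result was not tested. The Casparian strip list (7 of 7 genes tested) summed to 23.9 to 40.0 CPM at 36 hpg and 639.9 to 963 CPM at 12 hpg in *puchi-1*, and to 24.4 to 57.4 CPM at 36 hpg and 531 to 880.0 CPM at 12 hpg in WT. A root hair list (7 of 7 genes, among them *LRX1*, *RHD2*, and *RHD6*) summed to 28.6 to 64.8 CPM at 36 hpg and 657 to 919 CPM at 12 hpg in *puchi-1*, and to 23.8 to 124 CPM at 36 hpg and 354 to 585 CPM at 12 hpg in WT. Between 12 and 36 hpg 6 of 7 Casparian strip genes fell in each genotype, and 6 of 7 root hair genes in *puchi-1* and 2 of 7 in WT. All 6 genes of a xylem list fell in both, with sums of 175 to 348 CPM at 36 hpg and 952 to 1121 CPM at 12 hpg in *puchi-1*, and of 256 to 297 CPM at 36 hpg and 972 to 1352 CPM at 12 hpg in WT. The same lists were high in replicate 1 of ‘No LR’ segments, with 428 CPM for root hair genes in *puchi-1* and 513 CPM in WT, against 26.98 to 47.6 CPM in the other 4 ‘No LR’ libraries. None of the root hair, Casparian strip, xylem, or photosynthesis markers passed between the genotypes at any stage or in the mean of the bends. All 3 genes of a primordium list, which holds *PUCHI* and the auxin-induced LR initiation factor genes *LBD16* and *LBD29*, passed in the mean of the bends, with *LBD29* (log2FC 0.795, adjusted *P*=4.87e-06) and *PUCHI* higher in *puchi-1* and *LBD16* lower (−0.842, adjusted *P*=2.11e-07), and 1 to 3 of them passed at each stage but 12 hpg. Between 12 and 36 hpg *PUCHI* fell in both genotypes and *LBD16* in WT. The part of these genes in the members' differences was not tested.

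**Figure D4:**
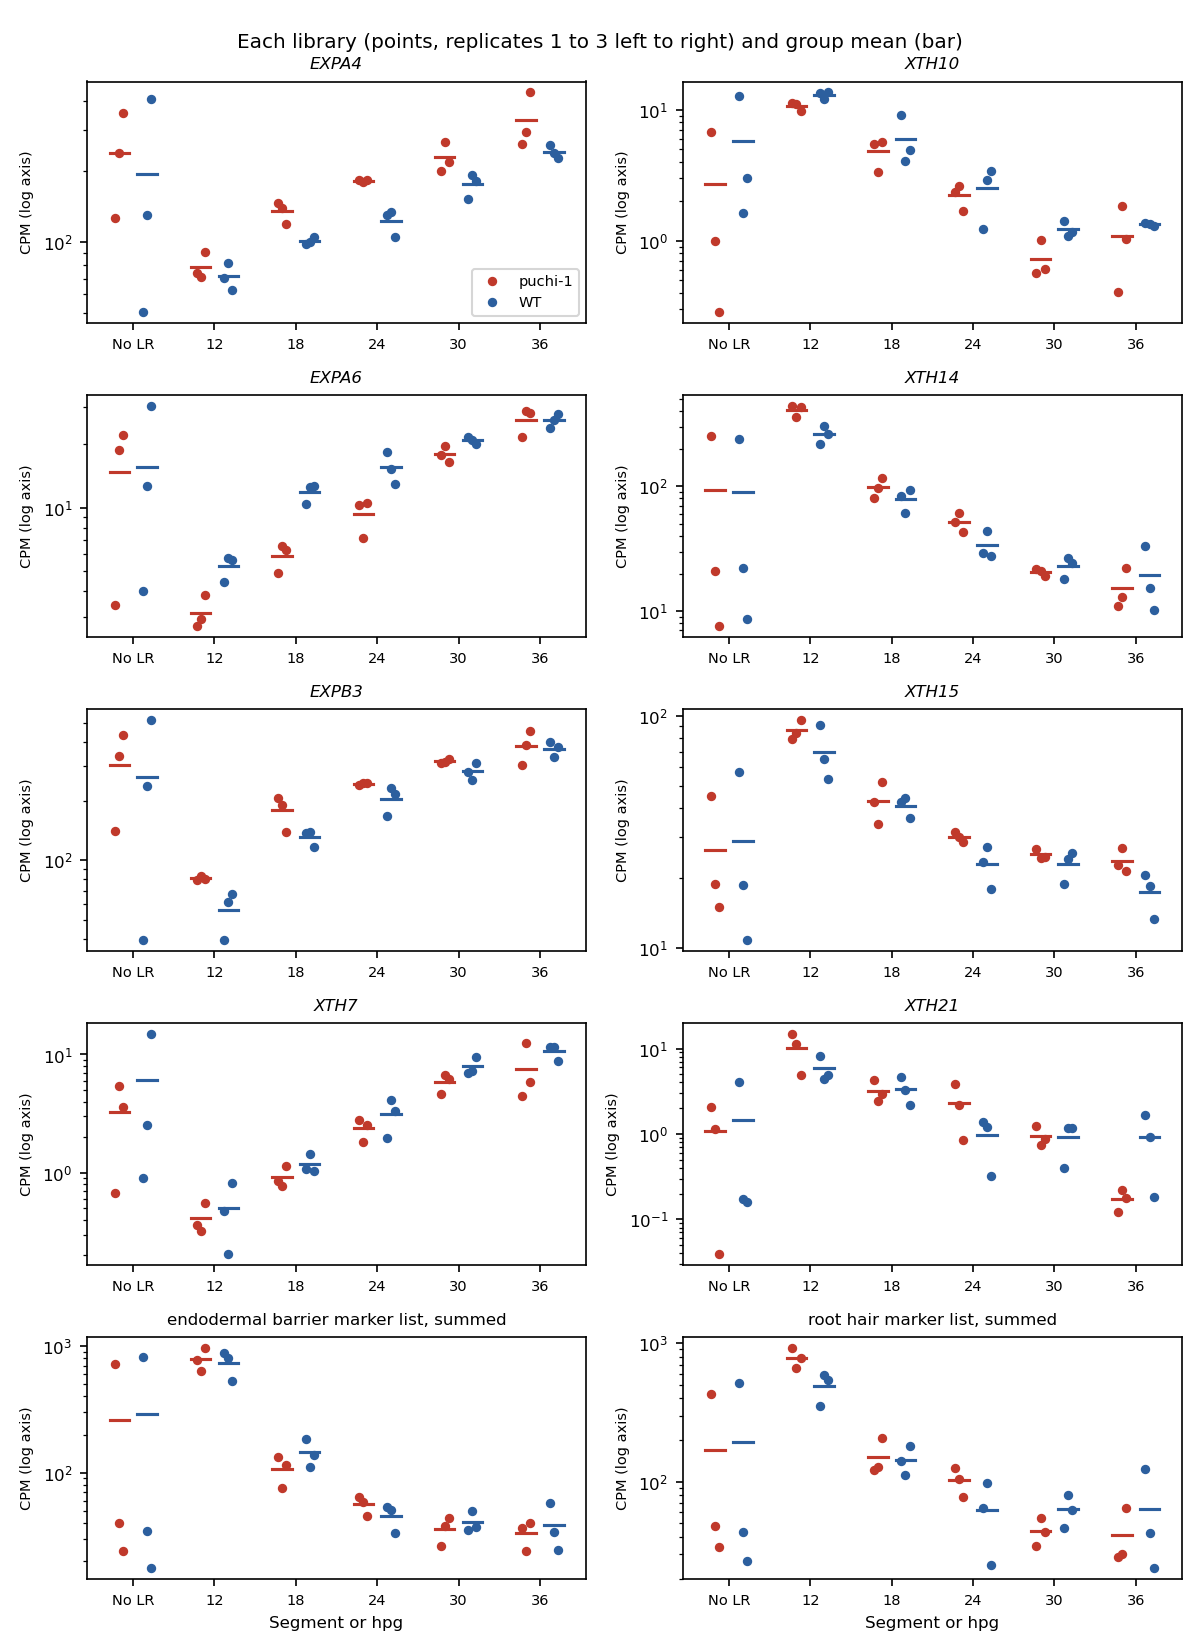
CPM on log axes of 4 members that rose between 12 and 36 hpg (left column) and 4 that fell (right column), with the summed CPM of the Casparian strip and root hair marker lists in the bottom panels. Points are libraries, replicates 1 to 3 from left to right, bars are group means, and *puchi-1* is left of WT. In ‘No LR’ segments replicate 1 lies lowest for the rising genes and highest for the falling genes and both marker lists.

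Genes that make and trim xyloglucan, the substrate of the XTH enzymes, were counted in the same comparisons. Of 14 genes (xylosyl-, galactosyl-, and fucosyltransferases, glucan synthases, and glycosidases), 0 passed between the genotypes at any of the 6 stages with edgeR, and 1 was higher in *puchi-1* for the mean of the bends. At 36 hpg against 12 hpg, 0 were higher and 3 lower in *puchi-1*, against 17.7% and 15.9% of all genes, and 1 was higher and 4 lower in WT, against 18.9% and 17.3%. At 12 hpg against ‘No LR’, 4 were higher in *puchi-1*, against 11.2% of all genes, and 0 passed in WT. Their summed level was between 553 and 1074 CPM in all 36 libraries.

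The 300 bases around each start (250 before and 50 after) were searched for 3 short motifs. The GCC box GCCGCC, the sequence bound by many AP2/ERF factors, was found on either strand in 0 of 46 windows and in 2.57% of all 27443 windows. The auxin response element TGTCTC was found in 6 members (*EXPA5*, *EXPA6*, *EXPA8*, *EXPA10*, *XTH6*, and *XTH21*), that is 13% against 14.2% of all windows, and the G-box CACGTG in 1 member (*EXPB2*, 2.17%) against 7.68%. Several members are neighbours on the same strand. *XTH24*, *XTH18*, and *XTH19* follow each other on chromosome 4 (gaps of 5161 and 1500 bases), and *XTH12*, *XTH13*, and *XTH25* on chromosome 5 (gaps of 1097 and 686 bases). In the group on chromosome 5, where 1 other gene lies between *XTH12* and *XTH13*, the levels were unlike: *XTH12* averaged 7.54 and *XTH13* 3.17 CPM per kb of exon and *XTH25* 0.0255.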

How the data were processed

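RNA from 36 pools was sequenced with a stranded mRNA kit as paired reads. Per the submitters' processing notes the tools were bcl2fastq 2.20, FastQC, TopHat2 2.1.1, Bowtie2 2.3.5.1, SAMtools 1.9, and featureCounts 2.0.0, and the authors deposited raw counts per gene with no normalization. Multi-mapped reads are a limit only for *XTH21*. Every column was assigned to a sample (0 left over). The libraries are named as biological replicates.

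Genes with at least 15 reads in all were tested in R 4.3.3 with edgeR 4.0.16 (TMM scaling, quasi-likelihood F test, 1 fit of 12 groups, 24 residual degrees of freedom), on limma 3.58.1, with Benjamini-Hochberg adjustment over all 25889 genes. The study's tool, DESeq2 (1.42.0 here), was an alternative. CPM used TMM library sizes. Sequences were read from TAIR10.1. Members that passed between genotypes, the 10 smallest adjusted *P* per comparison of times, and the 2 highest members of each family were named. The members and lists were chosen with earlier results of these data known. In same-numbered samples of both genotypes, deviations from the group mean correlated positively at all 3 pairs at 18 hpg (*r*=0.349, 0.101, and 0.374). The titles at 18 hpg also share months, though not all days. At 30 hpg all 3 pairs were positive too (*r*=0.224, 0.223, and 0.034), but the months in the titles of pair 3 differ. No pairing is stated in the Methods, and numbers were taken to pair the samples at 18 hpg only.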

Additional observations from a re-analysis of the deposited data

How the results depend on the processing

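No member call changed direction under any alternative. The count of members passing between genotypes (2 at each of ‘No LR’, 18, 24, and 30 hpg, 5 for the mean of the bends) moved as follows. It was 1 at 18 hpg and 1 at 24 hpg with DESeq2 size factors in edgeR, and likewise 1 and 1 with no filter on low counts. With the month in the titles as a covariate it was 1 at 24 hpg, and the WT counts were 17 at 12 hpg against ‘No LR’, 32 at 36 hpg against 12 hpg, and 25 over the bends. With the replicate block it was 1 at 30 hpg and 9 for the mean of the bends, and outside 18 hpg the numbers were not taken to pair the samples. With the compared groups fitted alone it was 0 for ‘No LR’, 0 at 24 hpg, 4 at 30 hpg, and 13 for the mean of the bends, and at 12 hpg against ‘No LR’ it was 2 in *puchi-1* and 0 in WT. With DESeq2 it was 8 for the mean of the bends, 31 over the bends in *puchi-1*, and 23 in WT. It gave no adjusted *P* for *EXPB2* over the bends in *puchi-1*. Leaving out 1 library at a time gave 2 to 5 for ‘No LR’, 0 to 1 at 18 hpg, 1 to 2 at 24 hpg, 1 to 2 at 30 hpg, 5 to 18 at 12 hpg against ‘No LR’ in *puchi-1*, 0 to 28 in WT, and 13 to 20 over the bends in *puchi-1*. Without replicate 1 of both ‘No LR’ groups, an alternative chosen after the data were seen, the counts were 1 between genotypes, 24 in *puchi-1*, and 29 in WT. The causes were not tested. Groups of 3 limit the precision, and members with few reads, such as *EXPB2* and *XTH6*, are the least certain.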
